A study of Mus musculus with 24 samples.

Results

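The effect of a Srcap mutation on B cells was measured by RNA-seq in 4 of the 24 libraries of the series, 2 from wild-type (WT) and 2 from Srcap mutant B cells. They were labelled as B cells isolated from the bone marrow of C57BL6/J mice 2 weeks after transplantation; donor cells that carry CD45.2 are named only for the 20-week transplants of the series, which were competitive. The sources used here do not give the mutant allele, the age of the mice, the B cell gate or the number of animals behind a library, and the labels' extraction text names sorted stem and progenitor cells for the B cell libraries too. The 4 libraries labelled T cells (2 WT and 2 mutant) and the 4 of hematopoietic stem and progenitor cells (HSPCs, 2 WT and 2 mutant) from the same 2-week transplantation stood beside them. The series also holds 12 HSPC libraries, 2 WT and 2 mutant each from untreated mice, from 20 weeks after transplantation and from 12 hours after doxorubicin.

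The genes described were chosen by their levels: those whose mean in the 4 B cell libraries was at least that in the 4 libraries labelled T cells were kept, because the latter were rich in granulocyte RNA. Levels are given as CPM, the counts of a gene scaled to a library total of 1000000 counts. Of 17426 genes that met this rule and had a read in a B cell library, 12654 passed the minimum on counts and were tested, among 17484 genes tested in all. The rule used the levels of B against T-labelled libraries, each pooled over both genotypes. A gene could thus pass it through the B cell genotype where it was higher. Of these 12654 genes, 218 reached the minimum in both libraries of 1 B cell genotype and in no other B cell or T-labelled library. None of the 218 is among the genes called below. Gm4779 and 8030474K03Rik, called below, reached it in the WT B cell and WT T-labelled libraries and had 0 counts in the mutant ones.

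Srcap encodes the motor ATPase of a chromatin remodelling complex that exchanges histone H2A for the variant H2A.Z in nucleosomes. In the bone marrow, B cells pass from pro-B cells, which cut and join their immunoglobulin genes with the RAG recombinase, through dividing pre-B cells, which display a heavy chain with the surrogate light chain, to small pre-B cells that leave the cell cycle and rearrange a light chain. Breaks made in this process are closed by non-homologous end joining, whereas homologous recombination serves dividing cells.

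The B cell libraries carried the defining markers of the lineage. Cd79a, the signalling chain of the B cell receptor, stood at 1033 and 1165 CPM in WT B cells and at 1034 and 1352 CPM in mutant B cells, against 51.4 to 87.7 CPM in the 4 T-labelled libraries. Pax5, the transcription factor that holds B cell identity, stood at 1129 and 1177 CPM in WT against 1383 and 1527 CPM in mutants. The T-labelled libraries were low in T cell markers, with a summed share of counts of 0.00306% to 0.00438% over 21 genes, against 0.00905% to 0.0127% in the B cell libraries. Of the chains of the T cell receptor complex, Cd3e stood at 0.088 to 1.56 CPM there, while Cd3d stood at 7.44 to 8.76 CPM, above the 1.499 to 6.66 CPM of the B cell libraries. In the T-labelled libraries 16.9% to 19.1% of counts fell in 22 neutrophil genes. The B cell libraries held 50018828 and 50883332 counts in WT and 51425980 and 48951218 counts in mutants, and the T-labelled ones 40872424 to 57324218 counts. With 2 libraries a group and no animals named, p-values measure the spread between these libraries, which may be technical.

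The targeted gene did not separate the genotypes by level. Srcap stood at 20.3 and 13.8 CPM in WT B cells and at 16.2 and 20.0 CPM in mutant B cells, so the groups overlapped (log2 change 0.08 ± 0.25, SE; adjusted p = 0.97). Its sign turned when WT replicate 2 (-0.16) or mutant replicate 2 (-0.07) was left out. A level of this kind does not check a label where the allele leaves the transcript in place, and the allele's effect on the transcript is not described in the sources used here.

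Across all genes tested, edgeR called 112 of 17484 (0.641%) between mutant and WT B cells at an adjusted p under 0.05, 10 higher (0.0572%) and 102 lower (0.583%) in mutants. Of these, 97 were genes higher in the T-labelled libraries (2.01% of 4830), and 95 of the 97 were lower in mutants (1.97%). Among the 12654 genes at least as high in B cells, 15 were called (0.119%), 8 higher (0.0632%) and 7 lower (0.0553%) in mutants, and 1013 had an unadjusted p under 0.05. The median log2 change was 0.02 over the genes at least as high in B cells and -0.15 over those higher in the T-labelled libraries.

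**Figure D1:**
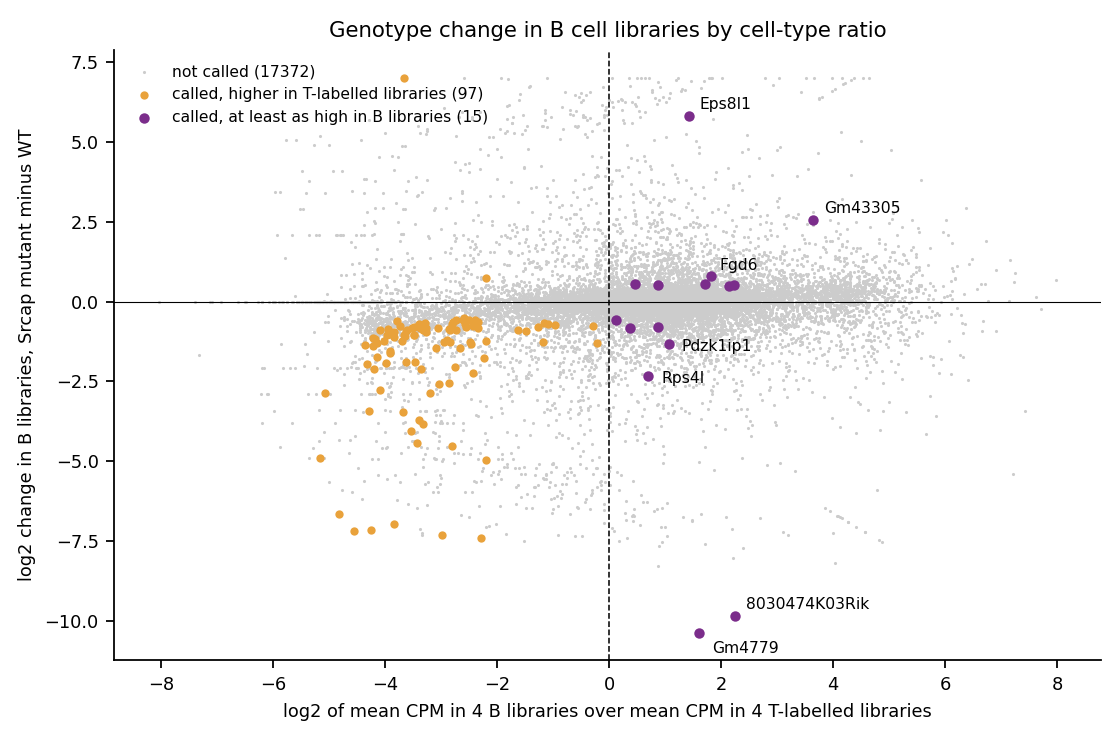
Each point is 1 of 17484 genes. The horizontal axis is the log2 ratio of its mean CPM in the 4 B cell libraries over that in the 4 T-labelled libraries (0.01 CPM added to both), the vertical axis its log2 change between Srcap mutant and WT B cells, and the dashed line the rule. Right of the line 15 genes were called in both directions, and left of it 97 genes were called, 95 of them below 0.

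The shares of neutrophil RNA differed among the 4 B cell libraries. The 22 neutrophil genes summed to 1.06% and 1.57% of counts in WT and to 1.06% and 0.460% in mutants, or 5.91%, 8.80%, 5.92% and 2.57% of their mean sum in the T-labelled libraries. In bulk libraries, fewer cells of a type and less RNA per cell cannot be told apart. If each gene followed those shares in proportion to its level in the T-labelled libraries, the mean shift from WT to mutant would be -3.11% of that level. For the called genes that fell, this came to 0.0089 to 4.56 CPM, against measured falls of 2.80 to 62.0 CPM. For Lgals1, the member closest to the rule's threshold, the values were -4.56 and -62.0 CPM, and for Isg15, the next, -1.73 and -40.5 CPM. This scaling used neutrophil genes alone, and WT replicate 1 and mutant replicate 1 had like shares, at 5.91% and 5.92%. The part of admixed cells, neutrophils or others, in these falls was not tested.

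At the threshold itself, the called genes just inside were Lgals1, with 1.09 times the T-labelled level, Isg15 with 1.30 times and Fbxl20 with 1.37 times. Just outside were H1f0, with 0.867 times that level, Runx2 with 0.821 times and Plin3 with 0.512 times, all lower in mutants. Had the rule used TMM-scaled CPM, Fbxl20, Isg15 and Lgals1 would have left and 12 called genes remained. Lgals1 met the rule through its WT mean of 191 CPM, with 129 CPM in mutants and 146 CPM in the T-labelled libraries. Isg15 did so too, with 92.1 CPM in WT, 51.6 CPM in mutants and 55.4 CPM in the T-labelled libraries. The mutant means of Rps4l, Gm4779 and 8030474K03Rik and the WT mean of Eps8l1 were likewise below the T-labelled mean.

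The genes that separated the genotypes most were Eps8l1 and Gm43305 upward and a pair of X-linked neighbours downward. Eps8l1 (chr7:4463673-4483486, GRCm39 as for all gene positions here), a member of the EPS8 family of actin regulators, stood at 0.480 and 0.314 CPM in WT B cells, from 24 and 16 counts. In mutant B cells it stood at 23.7 and 21.2 CPM, from 1219 and 1040 counts. The groups lay far apart, with means of 0.397 ± 0.117 and 22.5 ± 1.74 CPM (SD, n = 2 each), a 56.6-fold difference (log2 change 5.81 ± 0.75, adjusted p = 0.023). The call was lost without WT replicate 1 (adjusted p = 0.13), WT replicate 2 (0.23) or mutant replicate 2 (0.094), while the log2 change stayed between 5.55 and 6.16.

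The low level of Eps8l1 belonged to the 2-week WT libraries rather than to WT libraries in general. In T-labelled cells it stood at 0.342 and 0 CPM in WT against 9.996 and 6.73 CPM in mutants, and in 2-week HSPCs at 0.172 and 0 CPM in WT against 6.37 and 7.77 CPM in mutants. The 6 WT HSPC libraries of the other conditions carried 7.86 to 21.9 CPM, and the 6 mutant ones 0.648 to 15.6 CPM. All 6 libraries of 2-week WT cells were thus at or below 0.480 CPM, and the other 18 libraries of the series at or above 0.648 CPM. Whether the WT cells of the 2-week transplantation differ from other WT cells in a respect other than Srcap cannot be told apart from the genotype within the 2-week libraries.

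The X-linked pair showed the reverse. Gm4779 (chrX:100833659-100838029, minus strand) stood at 2.82 and 5.27 CPM in WT B cells, from 141 and 268 counts, and at 0 counts in both mutant libraries. With a floor of 3 counts per mutant library, it was at least 67.6-fold lower in mutants (adjusted p = 0.0085). Its neighbour 8030474K03Rik (chrX:100838262-100842248, plus strand), whose start lies 232 bases away on the opposite strand, stood at 1.24 and 4.36 CPM in WT B cells and also had no count in mutants, at least 46.8-fold lower (adjusted p = 0.032). Both lay under the mean level set for named genes and are named here after their values were seen.

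As with Eps8l1, the odd libraries were the 2-week WT ones. Gm4779 stood at 1.17 to 5.27 CPM and 8030474K03Rik at 0.465 to 4.36 CPM in the 6 libraries of 2-week WT B, T-labelled and HSPC samples. Gm4779 did not pass 0.138 CPM, and 8030474K03Rik did not pass 0.419 CPM, in any of the other 18 libraries. The 6 WT HSPC libraries of other conditions stood at no more than 0.0765 and 0.112 CPM for the pair.

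Gm43305 (chr14:54529900-54534913), annotated as a processed transcript, stood at 17.9 and 12.4 CPM in WT B cells and at 87.9 and 91.3 CPM in mutants. The groups did not overlap, and the means of 15.1 ± 3.90 and 89.6 ± 2.39 CPM (SD, n = 2 each) differed 5.92-fold (log2 change 2.56 ± 0.20, adjusted p = 9.7e-05). It was also higher in mutants in the T-labelled libraries, at 1.35 and 1.39 CPM against 7.54 and 6.45 CPM (log2 change 2.42 ± 0.22, adjusted p = 0.00085), and in 2-week HSPCs, at 2.15 and 2.30 CPM against 7.995 and 10.4 CPM (log2 change 2.07 ± 0.31, adjusted p = 0.0072). Only 2 of 17484 genes were called in the T-labelled libraries (0.0114%) and 27 of 19522 in 2-week HSPCs (0.138%). The untreated HSPCs overlapped, with 28.3 and 23.4 CPM in WT against 24.1 and 35.4 CPM in mutants. Gm43305 and Gm4779 were the only members called in every one of the 4 fits that left out a B cell library and under every other setting that was run on them.

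Rps4l (chr6:148256154-148257096) is annotated as a transcribed processed pseudogene and resembles the ribosomal protein gene Rps4x, so the split of reads between the copies is uncertain. It stood at 9.58 and 6.23 CPM in WT B cells and at 1.30 and 1.84 CPM in mutants, a 5.03-fold lower mean (log2 change -2.33 ± 0.44, adjusted p = 0.033). Both mutant libraries lay below both WT libraries not only in B cells but in each of the 6 genotype comparisons of the series. This held for 9 of the 17484 genes tested (0.0515%), and the opposite order in all 6 for 1 gene (0.00572%), Gm26648, which was not called in B cells. In untreated HSPCs Rps4l stood at 3.15 and 3.87 CPM in WT against 1.52 and 1.46 CPM in mutants, and after doxorubicin at 3.74 and 5.84 CPM against 1.14 and 0.920 CPM.

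**Figure D2:**
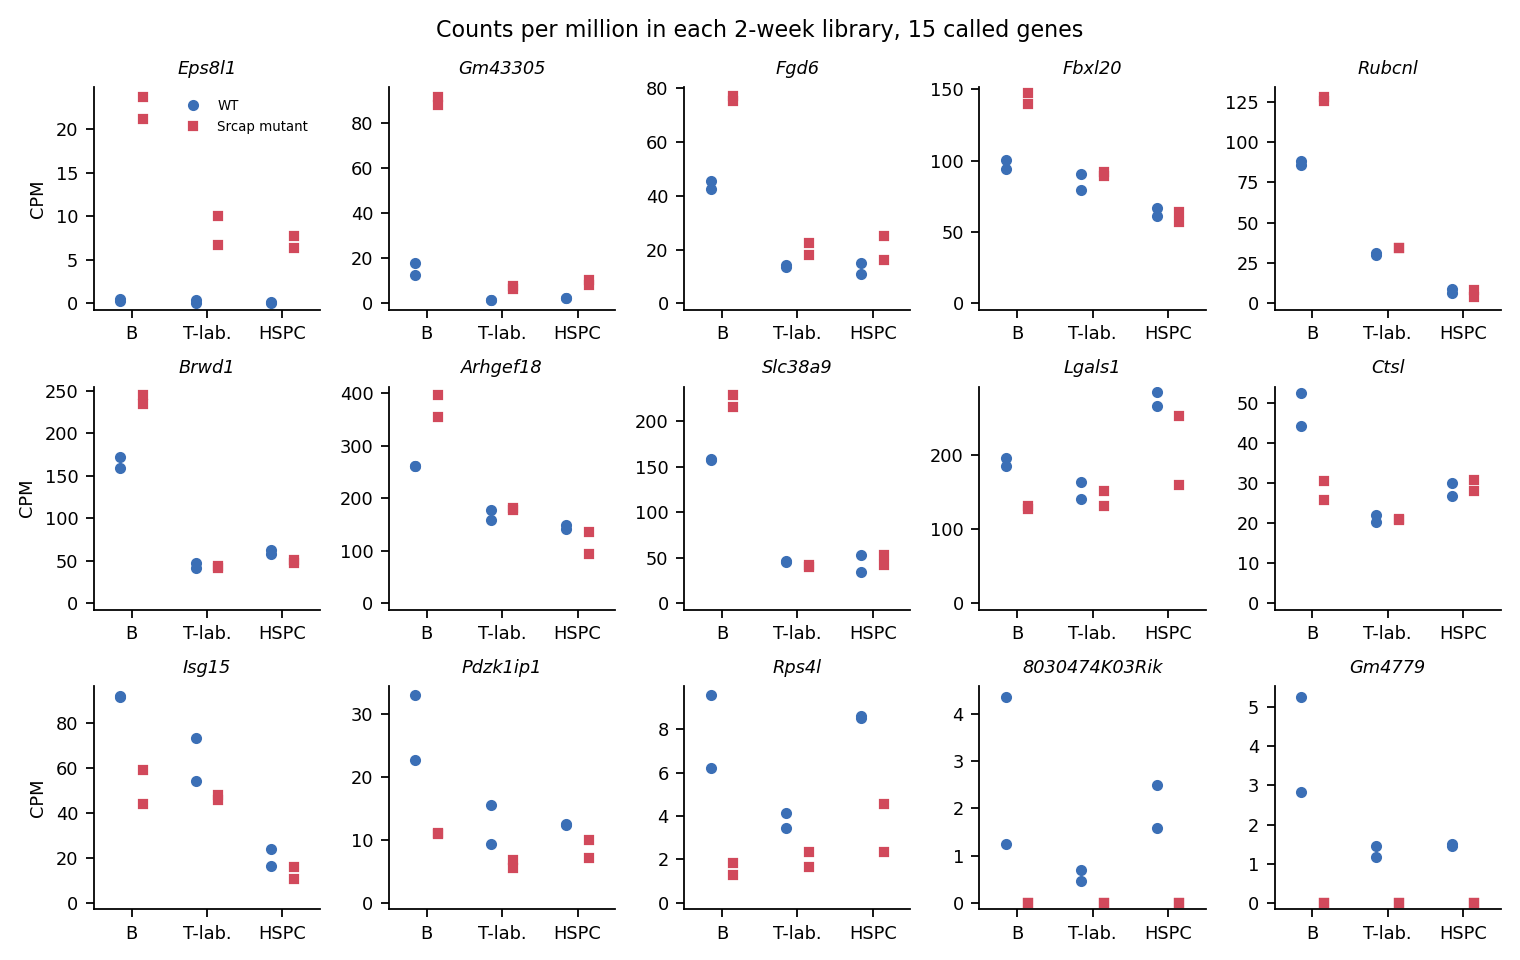
Each panel shows 1 of the 15 called genes, with CPM on a linear axis from 0 and a point for each of the 12 libraries of the 2-week transplantation (circles WT, squares Srcap mutant, 2 a group). Eps8l1, Gm43305, Fgd6, Isg15, Pdzk1ip1, Rps4l, 8030474K03Rik and Gm4779 keep the genotypes apart in 1 direction in all 3 populations, while Brwd1, Fbxl20 and Slc38a9 are higher, and Ctsl lower, in both mutant libraries in B cells and not in the other 2 populations shown. Over all 17484 genes, both mutants lay above both WT libraries in 12.7% and below in 24% in T-labelled libraries. In 2-week HSPCs these shares were 12% and 19.8%.

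The other members that rose did so by 1.41-fold to 1.73-fold. Fgd6 (chr10:93871863-93981201), an exchange factor that activates Cdc42, stood at 42.4 and 45.7 CPM in WT and at 77.2 and 75.3 CPM in mutants (log2 change 0.79 ± 0.15, adjusted p = 0.034). Arhgef18 (chr8:3403415-3506601), an exchange factor for small GTPases, stood at 261 and 262 CPM in WT and at 354 and 397 CPM in mutants (log2 change 0.52 ± 0.11, adjusted p = 0.045). Neither gene's groups overlapped, which was a condition for naming them. In 2-week HSPCs both mutant libraries of Arhgef18 lay below both WT libraries. They stood at 92.7 and 136 CPM against 148 and 141 CPM, an order that held there for 19.8% of all genes tested.

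Slc38a9 (chr13:112797285-112875283), the lysosomal amino acid transporter that reports arginine to mTORC1, stood at 159 and 157 CPM in WT and at 228 and 216 CPM in mutants. Its means of 158 ± 0.974 and 222 ± 9.11 CPM (SD, n = 2 each) differed by more than the spread within either genotype (log2 change 0.49 ± 0.10, adjusted p = 0.041). Rubcnl (chr14:75253467-75289972), which promotes the maturation of autophagosomes, stood at 88.4 and 85.8 CPM in WT and at 126 and 128 CPM in mutants (log2 change 0.54 ± 0.11, adjusted p = 0.040). Both genes were several times higher in B cells than in the T-labelled libraries, at 4.40 and 3.29 times that level. Slc38a9 was also higher in both mutant libraries of untreated HSPCs, at 43.3 and 56.1 CPM in WT against 65.5 and 58.7 CPM. The same held after doxorubicin, at 42.8 and 37.4 CPM against 49.8 and 71.3 CPM. That order was common there, at 24.4% of all genes tested in untreated HSPCs and 30% after doxorubicin. In the T-labelled libraries both mutants lay below both WT libraries, at 46.7 and 45.2 CPM in WT against 41.7 and 39.1 CPM, as in 24% of all genes tested.

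Brwd1 (chr16:95793292-95883726), a bromodomain reader of chromatin known for its part in the step from dividing to small pre-B cells, stood at 159 and 173 CPM in WT and at 235 and 245 CPM in mutants (log2 change 0.53 ± 0.11, adjusted p = 0.041). Fbxl20 (chr11:97973382-98041229), the substrate receptor of a ubiquitin ligase, stood at 93.9 and 101 CPM in WT and at 139.9 and 147 CPM in mutants (log2 change 0.56 ± 0.11, adjusted p = 0.035). Again the groups lay apart, as the choice of named genes required. Across the 12654 genes at least as high in B cells, both mutant libraries lay above both WT libraries in 24% and below them in 18.1%, so separation alone was common.

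Besides Rps4l and the X-linked pair, 4 genes fell. Pdzk1ip1 (chr4:114945905-114951096), a small membrane protein that binds PDZ domains, stood at 33.0 and 22.8 CPM in WT and at 11.0 and 11.1 CPM in mutants (log2 change -1.34 ± 0.27, adjusted p = 0.041). Ctsl (chr13:64507151-64518704), the lysosomal protease cathepsin L, stood at 44.1 and 52.4 CPM in WT and at 25.7 and 30.4 CPM in mutants (log2 change -0.79 ± 0.16, adjusted p = 0.045). Lgals1 (chr15:78810925-78814665), the lectin galectin 1, which can bind the pre-B cell receptor, stood at 186 and 196 CPM in WT and at 131 and 127 CPM in mutants (log2 change -0.57 ± 0.11, adjusted p = 0.038). In each of these genes both mutant libraries lay below both WT libraries, as the choice of named genes required. Ctsl did so after doxorubicin too, at 32.8 and 34.6 CPM in WT HSPCs against 30.8 and 29.1 CPM in mutant ones. That order held there for 16.8% of all genes tested, and Ctsl overlapped in the other 4 genotype comparisons. For Pdzk1ip1 both mutants lay below both WT libraries in 4 of the 6 comparisons. In 20-week HSPCs they lay above, at 48.2 and 29.1 CPM in WT against 76.2 and 51.6 CPM, as in 13.9% of all genes tested.

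Isg15 (chr4:156283912-156285253), an interferon-induced protein that is joined to other proteins like ubiquitin, stood at 91.9 and 92.3 CPM in WT and at 59.2 and 44.0 CPM in mutants, so that the WT libraries nearly coincided and the mutants lay below (log2 change -0.84 ± 0.16, adjusted p = 0.035). In T-labelled cells it stood at 54.4 and 73.5 CPM in WT against 47.9 and 45.9 CPM in mutants, and in 2-week HSPCs at 23.7 and 16.5 CPM against 10.8 and 15.9 CPM, in neither case past the threshold (adjusted p = 0.83 and 0.55). In 20-week HSPCs the order of Isg15 was the reverse, at 9.80 and 8.63 CPM in WT against 15.7 and 10.5 CPM in mutants. Both mutants lay above both WT libraries there in 13.9% of all genes tested. Of 33 interferon response genes tested, 23 were lower and 10 higher in mutant B cells, with a median log2 change of -0.25 beside -0.01 over all genes. The 3 that were called all fell, beside 0.583% of all genes tested called lower, and 1.97% of those higher in the T-labelled libraries. Besides Isg15 they were Oas3, which makes the 2-5A messenger of RNA decay, at 57.4 and 53.6 CPM in WT against 35.3 and 26.3 CPM in mutants (log2 change -0.85 ± 0.14, adjusted p = 0.016), and Irf7, the factor that amplifies interferon production, at 77.3 and 83.1 CPM against 47.3 and 53.7 CPM (log2 change -0.67 ± 0.13, adjusted p = 0.034). Oas3 and Irf7 were higher in the T-labelled libraries than in B cells, and of the 14 interferon genes at least as high in B cells 9 were lower and 5 higher, with a median of -0.09. The median over the 33 genes was 0.12 without WT replicate 2 and -0.42 without WT replicate 1.

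The promoters of Isg15 and Oas3 are shown because both carry the repeated GAAA element to which interferon-activated factors bind. The 250 bases before each start are given on the gene's strand from RefSeq (GRCm38.p6), chr4:156200819-156201068 and chr5:120777660-120777909, both minus, with matches to GAAANNGAAA or TTTCNNTTTC in capitals.
Isg15: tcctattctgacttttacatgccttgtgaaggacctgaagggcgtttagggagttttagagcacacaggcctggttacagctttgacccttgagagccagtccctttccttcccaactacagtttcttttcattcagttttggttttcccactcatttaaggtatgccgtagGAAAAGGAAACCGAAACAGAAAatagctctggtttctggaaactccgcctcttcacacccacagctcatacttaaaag
Oas3: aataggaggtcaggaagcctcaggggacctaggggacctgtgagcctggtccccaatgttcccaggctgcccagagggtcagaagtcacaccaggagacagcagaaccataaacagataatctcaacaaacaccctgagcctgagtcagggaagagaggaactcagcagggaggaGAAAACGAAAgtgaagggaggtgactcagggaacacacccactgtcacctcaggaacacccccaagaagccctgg
Isg15 holds 3 overlapping matches that end 57 bases before the start, and Oas3 holds 1 that ends 66 bases before it. Irf7 has none in this window, and 978 of 32851 promoters in the table hold the motif (2.98%). Of the 15 called genes, 13 have a promoter in the table and 2 hold a match, Isg15 and, in 1 of its 3 promoters, Eps8l1.

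The 15 called genes were then set beside the same contrast in the other 2-week populations. The change had the same sign as in B cells in 13 of 15 in the T-labelled libraries and in 10 of 15 in HSPCs. How often the signs match over all genes was not counted, so these numbers have no share to be set against. Fgd6 had log2 changes of 0.79 ± 0.15 in B cells, 0.61 ± 0.15 in T-labelled cells and 0.71 ± 0.39 in HSPCs, and the first of them passed the threshold. Brwd1 changed by 0.01 ± 0.11 in T-labelled cells and -0.26 ± 0.17 in HSPCs, and Slc38a9 by -0.12 ± 0.10 and 0.16 ± 0.22.

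The difference between the B cell and the T-labelled change was called for none of the 15, where edgeR called 3 of 17484 genes in all (0.0172%). The smallest adjusted p among the 15 was 0.18, for Slc38a9, whose change in B cells exceeded that in T-labelled libraries by 0.61 ± 0.14 on the log2 scale. The corresponding difference was 0.52 ± 0.15 for Brwd1 and -0.84 ± 0.23 for Ctsl. None of the 12654 genes at least as high in B cells had a called difference in edgeR, while DESeq2 called 22 and 659 passed an unadjusted p of 0.05 in edgeR.

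**Figure D3:**
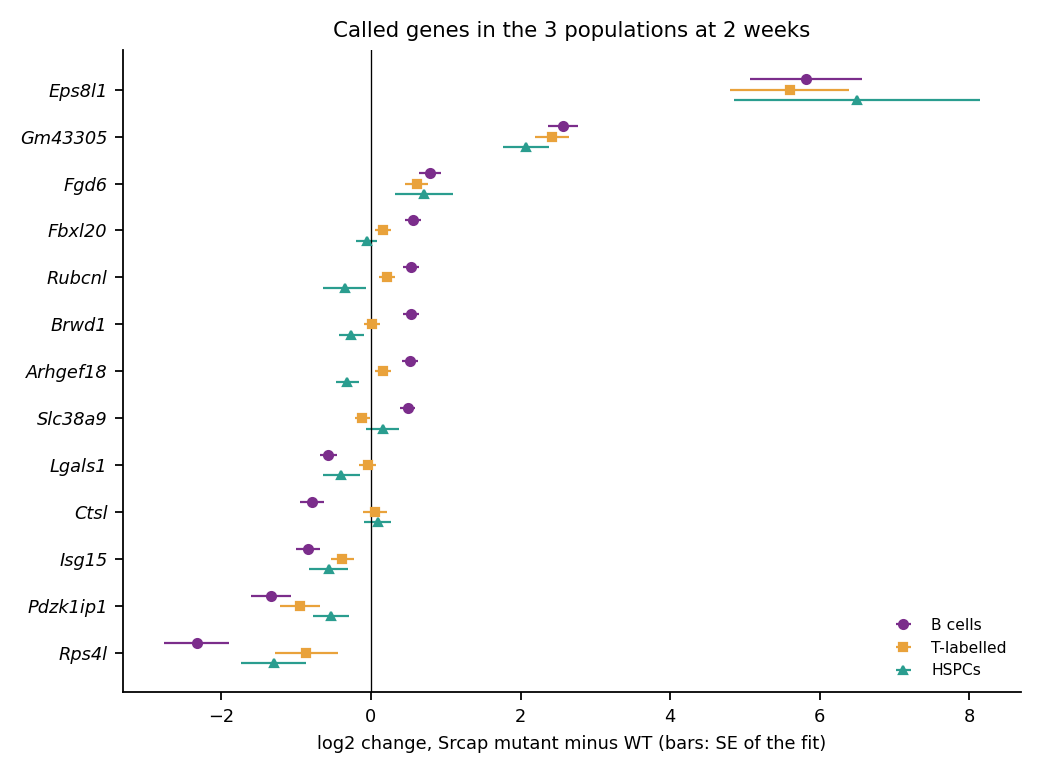
Points are the log2 change between Srcap mutant and WT in B cells (circles), T-labelled cells (squares) and HSPCs (triangles) of the 2-week transplantation, and bars the SE of the fit, for the 13 called genes with counts in both B cell genotypes. Eps8l1 and Gm43305 lie on the same side in all 3 populations, and Fbxl20, Rubcnl, Brwd1, Slc38a9, Lgals1 and Ctsl leave 0 by more than 2 SE in B cells and not in the other 2.

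Genes that define the B lineage were mostly higher in mutants, and none was called. Of 20 identity genes 17 were higher and 3 lower, with a median log2 change of 0.24, and in 10 of the 20 both mutants lay above both WT libraries, against 24% of all genes at least as high in B cells. Without mutant replicate 2, 13 were higher and 7 lower, with a median of 0.17. Without WT replicate 1 these were 15, 5 and 0.20, and without mutant replicate 1 they were 18, 2 and 0.34. Ebf1, the factor that opens the B cell programme, stood at 388 and 336 CPM in WT against 439 and 462 CPM in mutants (log2 change 0.31 ± 0.11, adjusted p = 0.26). Bach2, a repressor that holds back plasma cell fate, stood at 812 and 675 CPM against 898 and 949 CPM (0.31 ± 0.13, adjusted p = 0.37). The tetraspanin Cd37 stood lower in mutants, at 752 and 870 CPM against 634 and 705 CPM (-0.28 ± 0.12, adjusted p = 0.39). The same list had a median of -0.29 in the T-labelled libraries, with all 20 genes lower in mutants, and of 0.50 in HSPCs. In the same B cell libraries the marker lists of other cells were lower in mutants, with medians of -0.77 for neutrophil, -0.50 for erythroid, -0.77 for monocyte and -0.94 for T cell genes, and their part in the B lineage values was not tested.

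Stage markers did not share a direction. Rag1, which cuts immunoglobulin genes, stood at 841 and 812 CPM in WT against 1161 and 1189 CPM in mutants (log2 change 0.51 ± 0.13, adjusted p = 0.10), and the progenitor factor Myb at 925 and 1029 CPM against 1349 and 1248 CPM (0.41 ± 0.10, adjusted p = 0.11). The surrogate light chain genes were lower, with Vpreb2 at 17.1 and 8.78 CPM against 6.18 and 2.90 CPM (-1.52 ± 0.47, adjusted p = 0.21) and Vpreb1 at 93.4 and 67.5 CPM against 62.8 and 42.8 CPM (-0.61 ± 0.21, adjusted p = 0.27). Over the 19 pro-B and pre-B genes 8 were higher and 11 lower, with a median of -0.07 that was 0.0072 without WT replicate 1 and -0.046 without WT replicate 2.

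Among 20 genes of mature and recirculating B cells 13 were higher and 7 lower, with a median of 0.13, which was 0.016 without mutant replicate 2 (10 higher and 10 lower), 0.059 without WT replicate 1 and 0.26 without mutant replicate 1. Fcer2a, the low-affinity IgE receptor of mature cells, stood at 43.0 and 43.1 CPM in WT against 69.7 and 82.5 CPM in mutants (log2 change 0.82 ± 0.21, adjusted p = 0.12). Cd55, a brake on complement, stood at 90.9 and 105 CPM against 137 and 133 CPM (0.46 ± 0.12, adjusted p = 0.13).

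B cell receptor signalling genes were higher in 18 of 22, with a median of 0.14 and none called. Without mutant replicate 2 the count was 14 of 22 and the median 0.063, and without mutant replicate 1 the median was 0.22. The scaffold protease Malt1 stood at 128 and 145 CPM in WT against 174 and 180.1 CPM in mutants (log2 change 0.38 ± 0.10, adjusted p = 0.15), and the kinase Syk at 1894 and 1872 CPM against 2289 and 2529 CPM (0.35 ± 0.11, adjusted p = 0.22). The log2 change was 0.35 ± 0.10 for Prkcb and 0.33 ± 0.11 for Lyn. Rel, the NF-kB subunit of lymphocytes, came nearest to a call at 119.6 and 129 CPM against 168 and 176 CPM (0.46 ± 0.10, adjusted p = 0.064). Over the 26 genes of the NF-kB and cytokine list 17 were higher and 9 lower, with a median of 0.05, which was -0.049 without mutant replicate 2 (11 higher and 15 lower), 0.10 without WT replicate 2 and 0.16 without mutant replicate 1. Of 11 MHC class II genes 7 were higher, with a median of 0.06 that ran from -0.15 to 0.25 over the 4 fits that left out a library.

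Immunoglobulin genes set WT replicate 1 apart. Ighg2c, the constant region of a switched antibody class, stood at 51.1 CPM there and at 0.472 CPM in the other WT library, with 0.233 and 1.001 CPM in mutants. Ighg2b stood at 68.5 CPM there and at 3.11, 3.58 and 3.11 CPM in the others. Jchain, which joins secreted antibody chains, stood at 207 CPM there and at 28.01, 22.9 and 39.5 CPM in the others. Fitted log2 changes of -5.39 for Ighg2c, -3.43 for Ighg2b and -1.92 for Jchain became 0.40, 0.12 and 0.17 without that library. Ighd and Igkc were higher in both mutants, at 275 and 336 against 395 and 410 CPM for Ighd and 1831 and 2167 against 2169 and 2627 CPM for Igkc (adjusted p = 0.61 and 0.65). Leaving all immunoglobulin genes and Jchain out kept the same 15 calls.

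**Figure D4:**
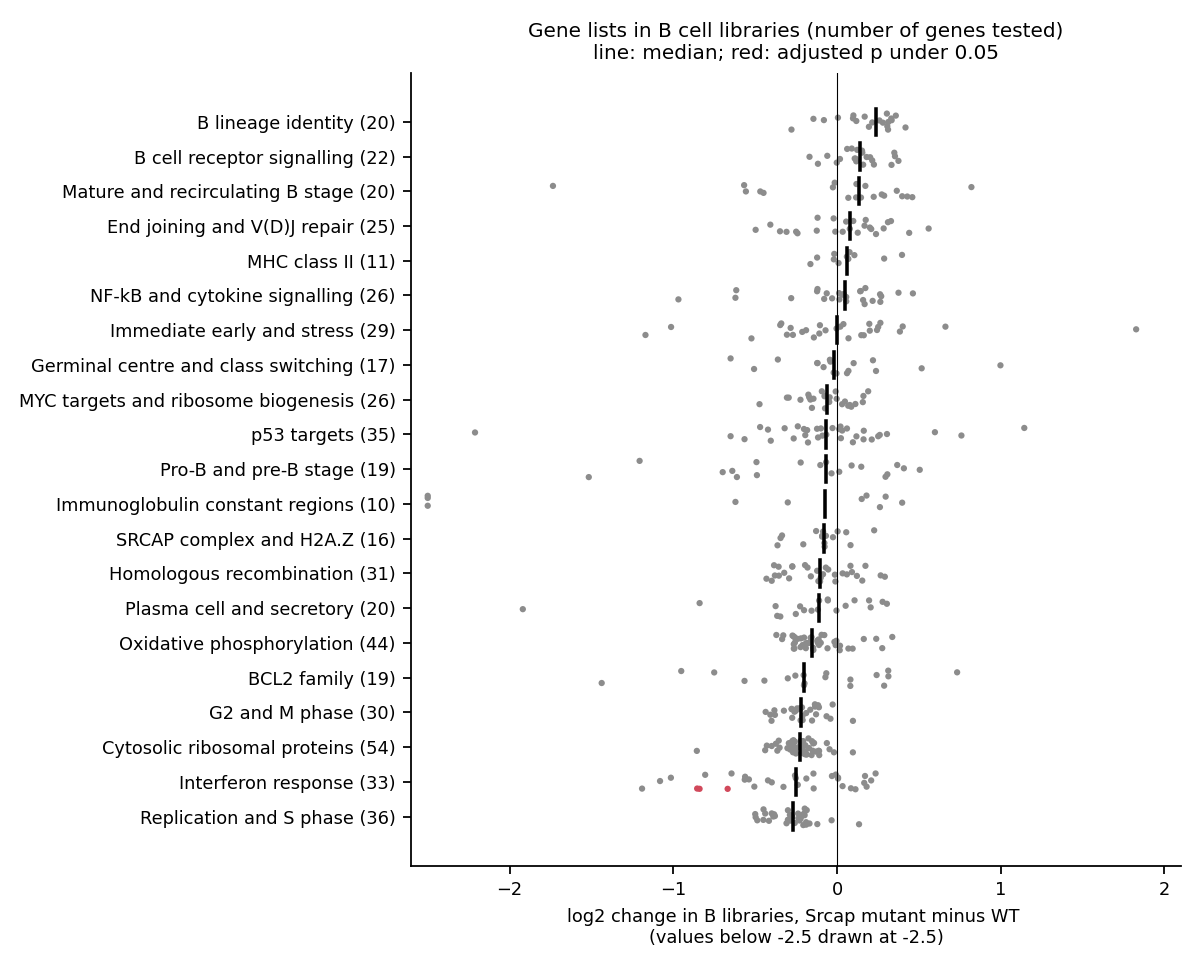
Each point is the log2 change of 1 gene between Srcap mutant and WT B cells, in rows by gene list with the number of genes tested in brackets, and black lines are medians. The 3 called genes, in red, are all interferon response genes, the S phase, G2 and M phase and ribosomal protein rows lie almost wholly below 0, and the B lineage row lies mostly above it.

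Genes of the dividing cell were lower in mutant B cells almost throughout, by small amounts and without a single call. Of 36 replication and S phase genes 35 were lower, with a median log2 change of -0.27, and in 26 both mutants lay below both WT libraries, beside 18.1% over all genes at least as high in B cells. Of 30 G2 and M phase genes 29 were lower (median -0.22), or 24 when mutant replicate 2 was left out (median -0.13). Pcna, the sliding clamp of replication, stood at 462 and 506 CPM in WT against 393 and 334 CPM in mutants (-0.42 ± 0.11, adjusted p = 0.12). Birc5, which encodes survivin of the mitotic spindle, came nearest to a call at 229 and 246 CPM against 186 and 166 CPM (-0.44 ± 0.10, adjusted p = 0.077). Tyms (-0.50 ± 0.14), Rrm2 (-0.45 ± 0.13) and Slbp (-0.38 ± 0.12) of S phase and Ube2c (-0.41 ± 0.10), Cdk1 (-0.38 ± 0.12) and Aurka (-0.40 ± 0.13) of mitosis had the smallest p-values of their lists besides Pcna and Birc5, and were not called. The medians of the S phase and G2 and M phase lists were -0.16 and -0.17 in the T-labelled libraries and 0.10 and 0.22 in HSPCs.

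Ribosomal protein genes were lower in 53 of 54, with a median of -0.22 and none called, and without WT replicate 2 in 44 of 54, with a median of -0.12. Rpl35 stood at 291 and 346 CPM in WT against 221 and 249 CPM in mutants (-0.44 ± 0.12, adjusted p = 0.13), and Rpl14 changed by -0.40 ± 0.11 and Rpl41 by -0.43 ± 0.12. Oxidative phosphorylation genes were lower in 36 of 44, with a median of -0.15, led by Ndufa2 (-0.37 ± 0.12) and Cox6c (-0.33 ± 0.12), and without WT replicate 2 in 28 of 45, with a median of -0.073. The MYC and ribosome biogenesis list was near 0, with 17 of 26 lower and a median of -0.06 that was 0.0093 without WT replicate 2 and -0.0065 without mutant replicate 2. Members of a list share their libraries, so these counts are not independent measurements.

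Erythroid genes, whose precursors also divide in the marrow, lay in the same direction. All 19 erythroid genes tested, each at least as high in B cells as in the T-labelled libraries, were lower in mutants with a median of -0.50, and they summed to 2.19% and 1.27% of counts in WT B cells and 1.57% and 0.863% in mutants. In 4 of the 19 both mutants lay below both WT libraries, beside 18.1% over all genes at least as high in B cells. Without WT replicate 1 the erythroid median was -0.06 (6 higher and 13 lower), with the S phase median at -0.19 and the G2 and M phase median at -0.18. Without mutant replicate 1 it was -0.90, with the other medians at -0.32 and -0.30. Without mutant replicate 2 it was -0.16 (7 higher and 12 lower), with the others at -0.23 and -0.13. The part of erythroid RNA in the cell cycle and ribosomal values was not tested.

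DNA repair genes did not share a direction across pathways. Of 25 end joining and V(D)J repair genes 15 were higher and 10 lower, with a median of 0.08 and none called, and the median was 0.0054 without mutant replicate 2 and 0.13 without WT replicate 2. Dclre1c, the Artemis nuclease that opens the hairpins made by RAG, came nearest at 82.0 and 78.8 CPM in WT against 115 and 122 CPM in mutants (log2 change 0.56 ± 0.12, adjusted p = 0.062). The kinase Prkdc changed by 0.31 ± 0.13, while Nbn, of the break sensor MRN, changed by -0.50 ± 0.19 and the histone H2afx by -0.31 ± 0.13. Homologous recombination genes were lower in 22 of 31, with a median of -0.10. Rpa2, of the complex that coats single-stranded DNA, stood at 116 and 99.3 CPM against 87.5 and 78.1 CPM (-0.38 ± 0.12, adjusted p = 0.25). The median of that list was 0.04 without mutant replicate 2, -0.041 without WT replicate 1 and -0.16 without mutant replicate 1.

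Of 35 p53 target genes 16 were higher and 19 lower, with a median of -0.07, which was nearest to 0 without WT replicate 1 (-0.021). Ercc5, a nuclease of excision repair, stood at 39.4 and 39.9 CPM in WT against 60.9 and 59.3 CPM in mutants (0.60 ± 0.15, adjusted p = 0.11). Rrm2b, which supplies nucleotides for repair, changed by 0.31 ± 0.12 and Zmat3 by 1.14 ± 0.44, the latter from 2.86 and 2.54 CPM to 6.46 and 5.50 CPM. In the BCL2 family the death agonist Bid stood at 61.4 and 69.4 CPM against 47.1 and 49.1 CPM (-0.44 ± 0.11, adjusted p = 0.10), and 12 of 19 members were lower.

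The partners of SRCAP and its substrate were slightly lower in 12 of 16 genes, with a median of -0.08 and none called. H2afz, which encodes the main form of H2A.Z, stood at 315 and 331 CPM in WT against 260 and 250 CPM in mutants (-0.34 ± 0.10, adjusted p = 0.17). The complex subunit Znhit1 changed by -0.36 ± 0.15 and the helicase Ruvbl2 by -0.34 ± 0.16, whereas Ino80, the motor of a related remodeller, changed by 0.23 ± 0.13. Cell cycle genes were lower in the same libraries, and their part in this value was not tested.

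Of the 21 lists of B cell and general functions, 20 held no called gene, where 0.641% of all genes tested and 0.119% of those at least as high in B cells were called, a share at which lists of this size hold few or none. The lists not yet described were the plasma cell and secretory list (14 of 20 lower, median -0.11, and 10 of 20 with -0.027 without WT replicate 1), the germinal centre list (10 of 17 lower, median -0.02, and 7 of 17 with 0.088 without WT replicate 1) and the immediate early and stress list (15 of 29 lower, median 0.00, and 17 of 29 with -0.13 without WT replicate 2), in which the chaperone Hspa1b stood at 0.980 and 0.649 CPM in WT against 2.51 and 3.29 CPM in mutants (1.83 ± 0.45, adjusted p = 0.10).

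Markers of cells other than B cells were lower in the mutant libraries for nearly every list, whichever side of the rule they fell on. All 22 neutrophil genes (median -0.77), all 20 monocyte, macrophage and dendritic cell genes (-0.77), all 14 NK cell genes (-0.44), 18 of 20 T cell genes (-0.94) and 9 of 10 plasmacytoid dendritic cell genes (-0.61) were lower, where the median over all genes was -0.01. The neutrophil median moved to -0.31 when mutant replicate 2 was left out and to -1.46 when mutant replicate 1 was. The plasmacytoid median was -0.34 without mutant replicate 1, and the NK one -0.68 without mutant replicate 2. The rule kept out all 22 neutrophil genes and 17 of the 20 monocyte list. It kept in 13 of 14 NK, 17 of 20 T cell, 8 of 10 plasmacytoid and all 19 erythroid genes, because those are higher in the B cell than in the T-labelled libraries.

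Called genes on these lists were Ccr2, Ly6c2 and Cd68 of the monocyte list and Runx2 of the plasmacytoid list, all below the rule, where 1.97% of genes were called lower. Ly6c2, a surface marker of inflammatory monocytes, stood at 105 and 135 CPM in WT against 68.5 and 46.4 CPM in mutants (log2 change -1.06 ± 0.17, adjusted p = 0.027). Siglech, which marks plasmacytoid dendritic cells and is above the rule, stood at 91.5 and 99.7 CPM against 47.3 and 63.0 CPM (-0.79 ± 0.29, adjusted p = 0.37). Summed over each list, 6 of the 11 lists of other cells had both mutants below both WT libraries, 4 overlapped and 1, stroma and endothelium, lay above. Monocyte genes summed to 0.0495% and 0.0537% of counts in WT and 0.0370% and 0.0255% in mutants, NK genes to 0.0240% and 0.0210% against 0.0150% and 0.0178%, and plasmacytoid genes to 0.112% and 0.132% against 0.0952% and 0.119%. The part of such cells in the falls of Isg15, Lgals1, Ctsl and Pdzk1ip1 was not tested.

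**Figure D5:**
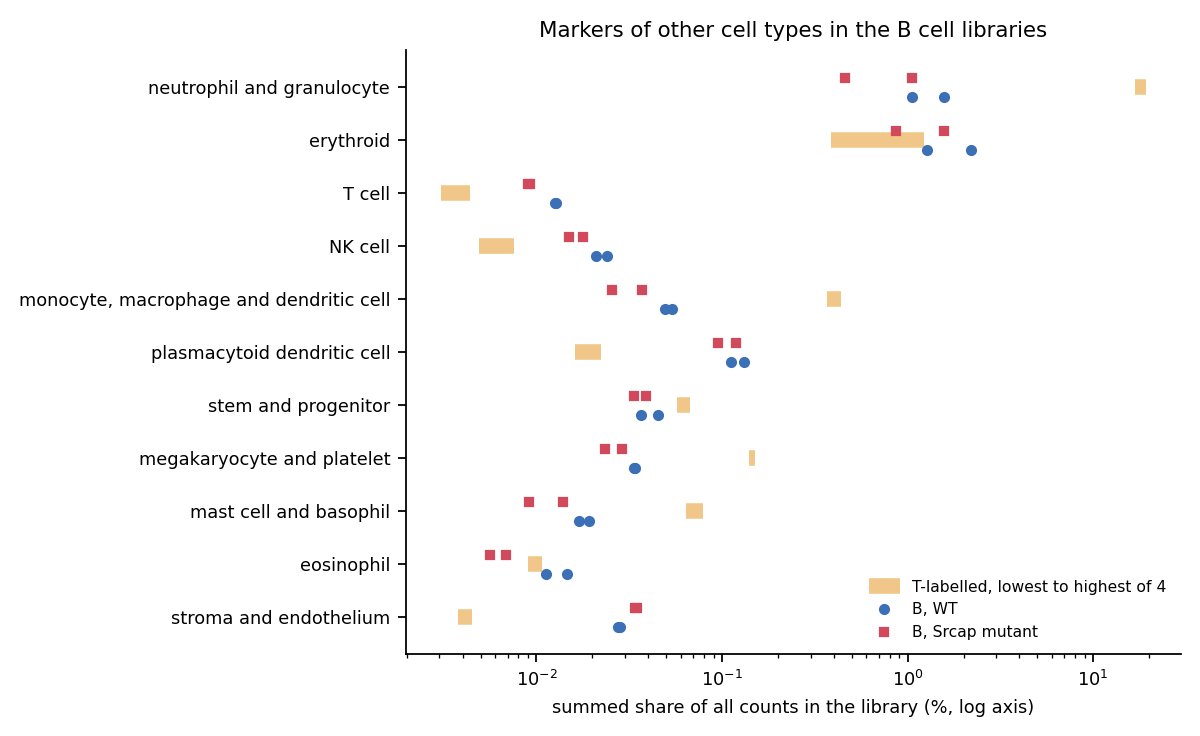
Summed share of counts (percent, log axis) of 11 lists of markers of other cell types in WT (circles) and Srcap mutant (squares) B cell libraries, with the range over the 4 T-labelled libraries as a bar. Neutrophil genes reach 1.57% in B cells and 19.1% in the T-labelled libraries, whereas T, NK and plasmacytoid dendritic cell genes are higher in B cells than there, and mutants lie lower or overlap in every list but stroma and endothelium.

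The number of calls moved with single libraries. The totals in brackets below count only called genes at least as high in B cells, not those among all genes tested. Of the 15 called genes at least as high in B cells, 5 were called again without WT replicate 1 (14 called in all), 4 without WT replicate 2 (6 called), 11 without mutant replicate 1 (53 called) and 2 without mutant replicate 2 (2 called). With the 4 B cell libraries fitted alone, Eps8l1, Gm43305 and Gm4779 were called. The direction of each of the 15 was the same in all of these fits.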

How the data were processed

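RNA was sequenced with the TruSeq stranded mRNA kit, per the labels' protocols. The deposited values are raw counts of paired fragments per gene, which the authors made with featureCounts v2.0.1 on the reverse strand over GENCODE M28 exons, per the file headers; gene positions in the files are those of GRCm39. FastQC, STAR, Subread and featureCounts, and both mm39 and mm10, are named in the submitters' processing notes, and the sources used here do not say how reads were aligned. Of 55414 genes, 52081 were given a symbol from an annotation table, and these held 99.9% of counts.

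Counts were tested as deposited with edgeR 4.0.16 (R 4.3.3) in its robust quasi-likelihood test, with TMM scaling, filterByExpr (minimum count 10, minimum total 15) and 1 mean per genotype and population over the 8 B cell and T-labelled libraries, which share an estimate of spread. B cell contrasts, T-labelled contrasts and their difference came from this fit, and the HSPC values from a like fit over 16 libraries. All adjusted p-values are Benjamini-Hochberg values over all genes tested, and ± after a log2 change is the SE. CPM values are unscaled. Counting error is small for genes with many counts and larger for those with few, such as Eps8l1 with 24 and 16 counts in WT B cells. With 2 libraries a group the precision is limited.

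Named genes were all those called among genes at least as high in B cells, with a mean level of 1 or more in log2 CPM and groups that did not overlap, and up to 4 genes of each list by p-value. The genes, lists and rule were chosen with earlier results of these data known. The alternatives left out the count filter, the immunoglobulin genes, the T-labelled libraries or each B cell library in turn, added a replicate block, changed TMM for RLE size factors or edgeR for DESeq2 1.42.0, or changed the rule.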

Additional observations from a re-analysis of the deposited data

Results flagged for a closer look

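The change between mutant and WT differed between B cells and T-labelled libraries for 3 genes in edgeR, all of them higher in the T-labelled libraries and so outside the genes described above. Nlrp1a, an inflammasome sensor, stood at 4.72 and 4.13 CPM in WT B cells and at 0.681 and 0.797 CPM in mutant B cells. In T-labelled libraries it stood at 22.9 and 17.7 CPM for WT and 20.0 and 24.1 CPM for mutants, and the log2 changes differed by -2.76 ± 0.33 (adjusted p = 0.018). Plekhg1, an exchange factor for small GTPases, stood at 2.84 and 4.11 CPM in WT B cells and 0.797 and 0.981 CPM in mutant ones, with 39.5 to 45.8 CPM in the T-labelled libraries and a difference of -2.14 ± 0.29 (adjusted p = 0.020). Dram1, a p53 target of the lysosome, stood at 6.04 and 6.39 CPM in WT B cells and 2.84 and 2.25 CPM in mutant ones, with 70.5 to 82.8 CPM in the T-labelled libraries and a difference of -1.49 ± 0.20 (adjusted p = 0.020). The fall in B cells was 3.68, 2.58 and 3.67 CPM in that order, where the neutrophil share scaled to each gene's T-labelled level would give -0.66, -1.37 and -2.40 CPM. Over the 9 alternatives run on each, the difference ran from -2.87 to -2.63 for Nlrp1a, from -2.37 to -1.84 for Plekhg1 and from -1.65 to -1.32 for Dram1. Alternatives that left out a B cell library changed the mean shares of neutrophil RNA, and the others kept all B cell libraries with the same shares. The part of granulocyte RNA in the 3 differences was not tested.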

How the results depend on the processing

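Called genes numbered 112 in all, 15 among genes at least as high in B cells, and 3 for the difference from T-labelled libraries. Without a count filter the numbers were 590, 153 and 357, and in DESeq2 333, 69 and 152. With the 4 B cell libraries alone they were 3 and 3. The replicate block gave 284, 97 and 35, but same-numbered B cell libraries shared little (correlation of their deviations 0.052, and 0.029 to 0.198 over all pairs of groups), so the samples share only a number. The 15 were all called without a filter, in DESeq2 and under the block. RLE scaling lost Ctsl (adjusted p = 0.051). A rule of at least 2 times the T-labelled level left 9. Leaving out 1 B cell library in turn gave 39 to 517 genes in all, 2 to 53 at least as high in B cells and 6 to 393 for the difference, lowest without mutant replicate 2 and highest without mutant replicate 1. Over these fits the log2 change ran from -0.16 to 0.40 for Srcap, -6.77 to 0.40 for Ighg2c, -4.35 to 0.12 for Ighg2b, -2.73 to 0.17 for Jchain and -0.088 to 0.31 for Cd79a. The positive immunoglobulin and Jchain values were those without WT replicate 1, and the negative Cd79a value (-0.088) and a Srcap value of -0.07 those without mutant replicate 2. The cause of these shifts was not tested. A fit with 1 library in a group assumes that it varies like the other groups.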

Other observations

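Just short of a call among genes at least as high in B cells were several genes named here after their values were seen. Lars2, the mitochondrial leucine tRNA synthetase, stood at 189 and 239 CPM in WT B cells and at 155 and 131 CPM in mutants (log2 change -0.58 ± 0.12, edgeR adjusted p = 0.053). Erbb3, a receptor of the EGF receptor family, stood at 10.1 and 8.82 CPM against 2.76 and 3.41 CPM (-1.62 ± 0.35, adjusted p = 0.058). Rnf111, a ubiquitin ligase that reads SUMO, stood at 125 and 129 CPM against 192 and 171 CPM (0.51 ± 0.11, adjusted p = 0.058).

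As3mt, the arsenic methyltransferase, was among the 9 genes with both mutant libraries below both WT libraries in all 6 genotype comparisons. It stood at 24.1 and 26.8 CPM in WT B cells and 15.1 and 15.5 CPM in mutants (log2 change -0.73, adjusted p = 0.16), and at 54.2 and 52.8 CPM against 32.9 and 27.8 CPM in HSPCs after doxorubicin. The other 7 besides Rps4l and As3mt were Pbx3, Rnf17, Lipo3, Trim35, Pkp3, Dnaaf3 and a gene without a symbol, none of them called in B cells.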
